A study of Mus musculus with 14 samples.

Results

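The antigen receptor loci are the 6 stretches of the mouse genome from which lymphocytes assemble the chains of antibodies and T cell receptors. The members are the RefSeq spans of the complex loci on GRCm38: Igh for immunoglobulin heavy chains, Igk and Igl for the kappa and lambda light chains, and Tcra (which contains the delta locus, Tcrd), Tcrb and Tcrg for the T cell receptor chains. A listed ChIP-seq peak was counted in a locus when it lay wholly inside the span. This gave 162 of the 39832 peaks listed in the series, 28 of 217 in the Damage lists and 134 of 39615 in the Homeostasis lists. The loci were selected on the counts of listed peaks by treatment, with the share of Damage peaks in Igh already known, so counts, shares and positions by treatment are given as a description, without a test.

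The cells were sorted from hearts of C57BL/6 mice aged 6 to 8 weeks as Sca1+CD45-, that is, carrying the stromal and progenitor antigen Sca1 and lacking the leukocyte antigen CD45. Damage mice had been injected once with paraquat, a redox-cycling herbicide, at 20 mg/kg in PBS, and Homeostasis mice had been injected with PBS alone. The 4 groups were Damage H2AK119ub, Damage BMI1, Homeostasis H2AK119ub and Homeostasis BMI1, with 3 libraries each. BMI1 belongs to Polycomb repressive complex 1, which attaches single ubiquitins to histone H2A, and H2AK119ub is that modified histone. The labels do not say whether replicates were separate animals, so p-values measure only the spread between these libraries, which may be technical, and a peak list does not show which of the sorted cells carried a signal.

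In developing B and T cells, the RAG recombinase joins one variable (V), in some chains one diversity (D), and one joining (J) segment, and the joined exon is transcribed with a constant (C) region. In cells that are not lymphocytes the loci stay in their germline arrangement. V segments lie in long arrays of related copies. In Igh the constant regions lie at the low-coordinate end of the locus, followed by the J and D segments and then by the V array, which runs to the telomeric side and ends in the large Ighv1 family.

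Igh (gene ID 111507, chromosome 12, 113258768 to 116009954) is 2.75 Mb long and is annotated with 121 V segments, 63 V pseudogenes, 20 D segments, 4 J segments and 7 constant regions. Igk (gene ID 243469, chromosome 6, 67555636 to 70726754) is 3.17 Mb long and Tcra (gene ID 21473, chromosome 14, 52427967 to 54224198) 1.80 Mb. Tcrb (gene ID 21577, chromosome 6, 40891296 to 41558371) covers 0.667 Mb, Igl (gene ID 111519, chromosome 16, 19026858 to 19260844) 0.234 Mb and Tcrg (gene ID 110067, chromosome 13, 19178042 to 19356476) 0.178 Mb. Together they make up 0.325% of the span of the assembled chromosomes, and Igh alone 0.102%.

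List lengths differed strongly between treatments and move with every share below. Damage lists held 19 to 68 peaks and Homeostasis lists 2000 to 13487. Read depth is unknown, so these lengths could not be scaled for it, and the part that list length had in the shares was not tested. Exact (Clopper-Pearson) 95% binomial intervals, and the limit that a count of 0 allows (3 counts), are given for single Damage lists and cover counting error only.

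All 28 Damage peaks found in the 6 loci lay in Igh. Damage H2AK119ub replicate 1 had 5 peaks in Igh (16.1% of the list, interval 5.45 to 33.7%), replicate 2 had 13 (19.1%, 10.6 to 30.5%) and replicate 3 had 2 (8%, 0.984 to 26.0%). Damage BMI1 replicate 1 had 0 of 19, which allows a share of up to 15.8%, replicate 2 had 1 (3.70%, 0.0937 to 19.0%) and replicate 3 had 7 (14.9%, 6.20 to 28.3%). Homeostasis H2AK119ub replicates 1, 2 and 3 had 3, 17 and 7 peaks in Igh, which was 0.15%, 0.126% and 0.0930% of the lists. Homeostasis BMI1 replicates 1, 2 and 3 had 9, 13 and 7 peaks, or 0.179%, 0.173% and 0.172%. Every Damage list with a peak in Igh had a higher share there than any Homeostasis list, and the exception was Damage BMI1 replicate 1, which had none. This order was fixed by list length: in lists of at most 68 peaks, 1 peak in any locus gives a share above 0.179%.

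**Figure D1:**
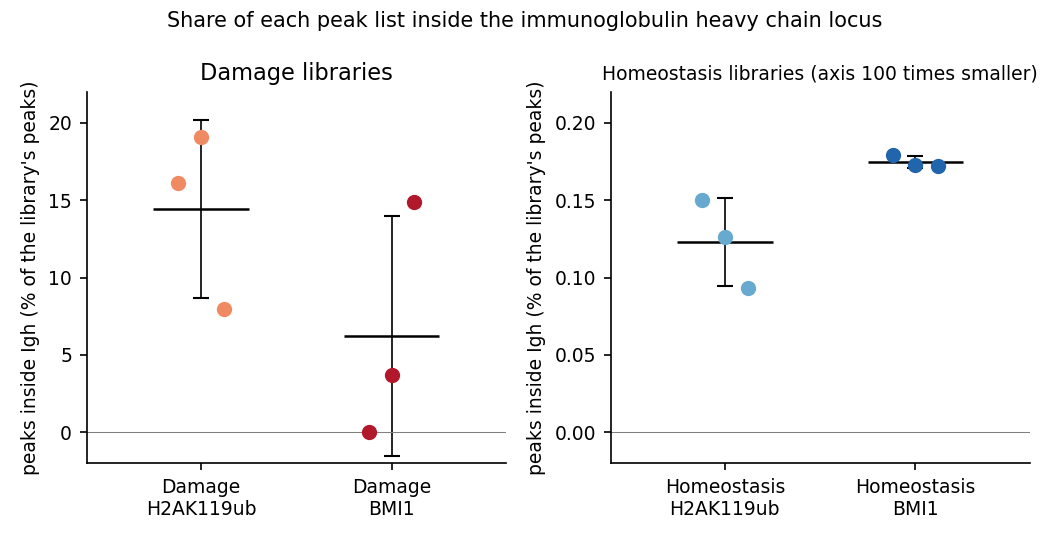
Peaks wholly inside Igh as a percentage of each library's listed peaks, with points for libraries, horizontal bars for group means and vertical bars for the SD (n = 3 libraries per group), and separate axes for Damage (left) and Homeostasis (right). Of the Damage libraries, 5 lie between 3.70% and 19.1% and 1 lies at 0, while the 6 Homeostasis libraries lie between 0.0930% and 0.179%.

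The group means were 14.4 ± 5.75% for Damage H2AK119ub, 6.20 ± 7.75% for Damage BMI1, 0.123 ± 0.0286% for Homeostasis H2AK119ub and 0.175 ± 0.00397% for Homeostasis BMI1 (SD, n = 3 each). Peak density, in peaks per Mb of the locus over peaks per Mb of the assembled chromosomes, averaged 102 ± 74.8 in Igh over the 6 Damage lists and 1.47 ± 0.333 over the 6 Homeostasis lists. With chromosome 12 in place of the genome as the denominator, the Damage ratio was 30.1 and the Homeostasis ratio 1.44, since Igh itself held 28 of the 35 Damage peaks on chromosome 12. In Damage H2AK119ub replicates 1 and 3 and in Damage BMI1 replicate 3, every peak listed on chromosome 12 was in Igh. The count leaned on a single list: without Damage H2AK119ub replicate 2, the number in Igh was 15.

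The background for these counts came from genes and from windows of the genome. Igh had a Damage peak in 5 of 6 lists. Of 49943 annotated genes on the assembled chromosomes, 0.132% had a Damage peak inside in at least 1 list and 0.01% in 2 or more, which was 5 genes with Igh among them. When the chromosomes were cut into 974 windows of the length of Igh, 14.1% had a Damage peak in at least 1 list, 2.36% in 2 or more lists and 0.308% in 5 or more lists. Among the 972 windows that shared no base with Igh, the highest number of Damage peaks was 5 and 1 window had peaks in 5 or more lists. Peaks over the 6 Homeostasis lists numbered 56 in Igh, against a median of 39 in windows of its length, and 82.3% of windows held fewer. A peak in all 6 Homeostasis lists, as in Igh, was found in 79.7% of windows.

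**Figure D2:**
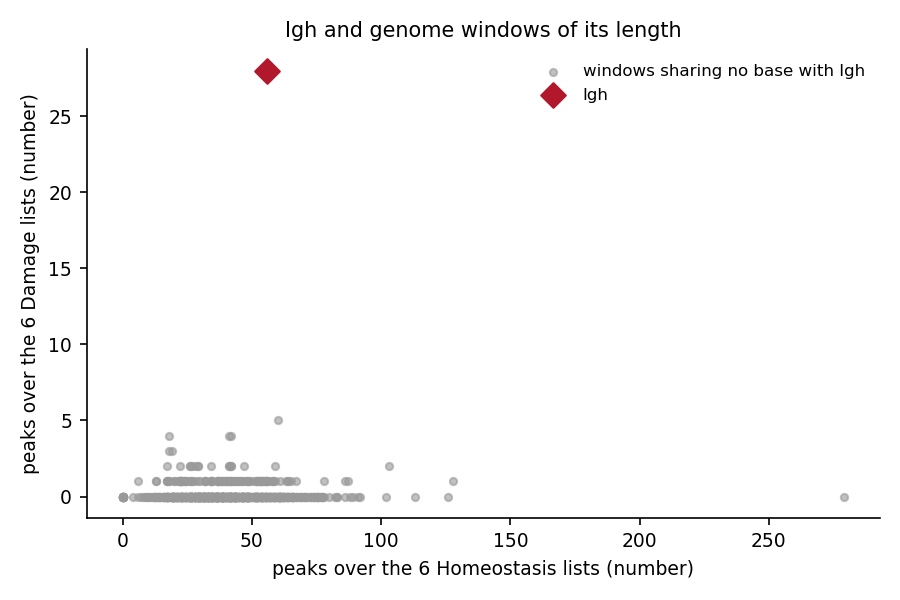
Number of listed peaks over the 6 Damage lists (vertical axis) against the number over the 6 Homeostasis lists (horizontal axis), for Igh (red diamond) and for genome windows of the same length that share no base with it (grey). Igh lies at 28 Damage and 56 Homeostasis peaks, while the other windows reach at most 5 Damage peaks.

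No Damage peak was listed in Igk, Igl, Tcra, Tcrb or Tcrg. A count of 0 in loci of these lengths was common: a Damage peak was present in 16.1% of windows of the length of Igk, in 9.51% of those of the length of Tcra, 3.81% for Tcrb, 1.39% for Igl and 1.08% for Tcrg. The absence of Damage peaks from these 5 loci therefore does not set them apart from other stretches of their length.

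Within Igh, the Damage peaks lay in the V array. All 28 Damage peaks were in the V array (chromosome 12, 113572929 to 116009954, from Ighv5-1 to Ighv1-86), and none was in the 0.314 Mb with the constant regions, J segments and D segments. Of the 56 Homeostasis peaks, 42 were in the V array and 14 below it. The Homeostasis peaks fell in 22 distinct regions and the Damage peaks in 27. A site found in several lists was counted once for each list, so recurrent sites weigh more in the Homeostasis positions given here. The V array makes up 88.6% of the locus. The stretch that holds the Ighv1 family, from Ighv1-1 to the end of the array, makes up 60.3% of the locus and held 25 of 28 Damage peaks, against 20 of 56 Homeostasis peaks. The median peak lay 1.92 Mb from the constant-region end in the Damage lists and 1.03 Mb from it in the Homeostasis lists. The count for Damage rested in part on H2AK119ub replicate 2, without which 12 of 15 peaks were in the Ighv1 stretch.

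**Figure D3:**
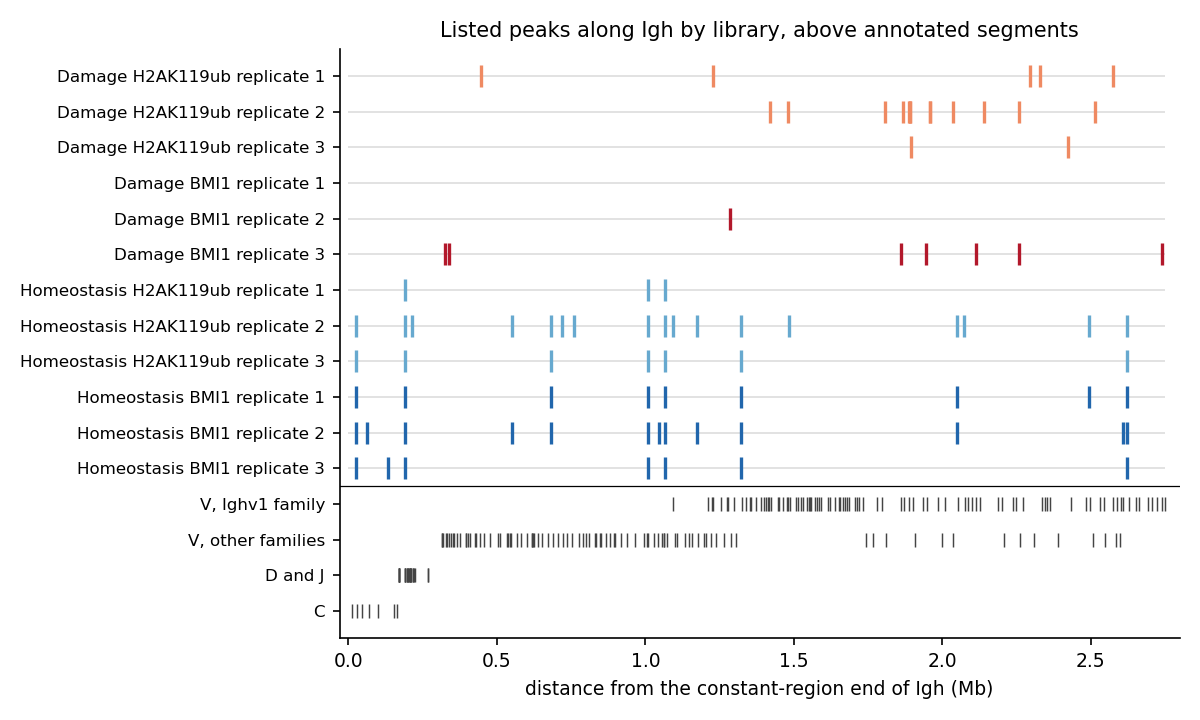
Positions of listed peaks along Igh in Mb from the constant-region end, one row per library with the Damage libraries above the Homeostasis libraries, over the annotated V segments (with pseudogenes), D and J segments and C regions. Homeostasis peaks line up between libraries, for instance at 0.189 Mb and 1.06 Mb in all 6, while the 28 Damage peaks lie between 0.327 and 2.74 Mb and share a single position between 2 libraries.

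Peaks of Damage H2AK119ub replicate 2 made up most of the densest stretch. Chosen after the positions were seen, the 200 kb stretch with the most Damage peaks held 10 of 28 between 115064918 and 115217913, of which 7 were from Damage H2AK119ub replicate 2, 1 from Damage H2AK119ub replicate 3 and 2 from Damage BMI1 replicate 3. No Homeostasis list had a peak there, which is not rare for stretches of this size. Of genome windows of 0.178 Mb, 62.6% had a Homeostasis peak, and of those of 0.234 Mb, 71.5%. Of these peaks, 9 had the V segment Ighv8-5, Ighv1-50, Ighv1-52 or Ighv1-55 as the nearest feature, and the one at 115217813 the pseudogene Gm7142 (6946 bp). Around Ighv1-52, 3 peaks of H2AK119ub replicate 2 (115146693, 115149263 and 115150367, 913 to 4587 bp from the segment) were followed by a peak of H2AK119ub replicate 3 at 115151892, 1425 bp beyond the last of them. The 3 remaining peaks of replicate 2 in this stretch were at 115125290, 115216299 and 115217813, apart from the one beside Ighv8-5 at 115064918.

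The other peaks of Damage H2AK119ub replicate 2 were closest to Ighv1-17, a V pseudogene (1798 bp), to the pseudogene Ighv1-21-1 (1110 bp), to the V segment Ighv8-8 (748 bp), to the V pseudogene Ighv8-10 (373 bp), to the noncoding RNA gene Gm30996 (9341 bp) and to the pseudogene Gm9251 (1150 bp). Damage H2AK119ub replicate 1 had peaks beside Ighv1-4 (37 bp), Ighv1-75 (71 bp) and Ighv5-12 (3582 bp), and 2 peaks closest to the pseudogenes Gm9238 (8531 bp) and Rpl7a-ps2 (2638 bp). The second peak of Damage H2AK119ub replicate 3 was 8963 bp from Ighv1-70. None of the 20 H2AK119ub peaks overlapped an annotated segment, and 19 of them lay in the Ighv1 stretch.

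The 7 peaks of Damage BMI1 replicate 3 lay near the V segments Ighv2-2 (2925 bp), Ighv5-4 (83 bp), Ighv1-50 (198 bp), Ighv1-55 (4330 bp) and Ighv1-85 (632 bp) and the V pseudogenes Ighv1-62 (614 bp) and Ighv8-10 (413 bp). The single peak of Damage BMI1 replicate 2 was 2569 bp from the V pseudogene Ighv10-4, at 114544589. Of all 28 Damage peaks, 18 had an Ighv1 member as the nearest V segment or pseudogene and 6 an Ighv8 member, where 92 of the 184 annotated V segments and pseudogenes of Igh belong to Ighv1 and 16 to Ighv8. Without Damage H2AK119ub replicate 2 these numbers were 9 and 2 of 15. For Homeostasis peaks they were 19 and 0 of 56, of which 14 lay below the V array. Those 56 peaks fell in 22 distinct regions, so a site found in several lists was counted more than once, here and in the distances that follow. Of the 6 Damage peaks nearest to an Ighv8 member, 2 overlapped each other beside Ighv8-10. The share of Igh sequence nearest to each V family was not computed, so the segment counts are only a rough background. The median distance to the nearest V segment or pseudogene was 2747 bp for Damage and 4186 bp for Homeostasis peaks. The Homeostasis median includes the 14 peaks below the V array, up to 288997 bp from a V segment, where no Damage peak lay. Within 1 kb of a V segment or pseudogene lay 10 of 28 Damage peaks (5 of 21 without Damage BMI1 replicate 3). Of the 42 Homeostasis peaks in the V array, 14 lay within 1 kb. Within 5 kb lay 19 of 28 Damage peaks and 33 of these 42 Homeostasis peaks.

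At the edges of the span, the outermost Damage peaks inside were at 113585242, 326 kb from the constant-region end, and at 115999296, 10.6 kb from the other end. Just beyond that end, Damage H2AK119ub replicate 2 had a further peak at 116011693, 1.74 kb outside the span, which was not counted. On the other side no Damage peak was listed for 49174 kb. The outermost Homeostasis peaks inside were 25.1 kb and 130 kb from the 2 ends, and the nearest outside were 94.0 kb and 137 kb away.

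Of the 28 Damage peaks in Igh, 0 overlapped a Homeostasis peak, 0 lay within 1 kb of one and 1 lay within 10 kb, at a distance of 5875 bp. Of the 189 Damage peaks outside the loci, 19 (10.1%) overlapped a Homeostasis peak, 23 (12.2%) lay within 1 kb and 46 (24.3%) within 10 kb. The median distance from a Damage peak to the nearest Homeostasis peak was 107706 bp inside and 50156 bp outside. Most Damage peaks outside the loci thus lay apart from Homeostasis peaks as well, and the difference was not tested. One position was found in 2 Damage lists: the region from 115518827 to 115518967, beside the V pseudogene Ighv8-10, had a peak in Damage H2AK119ub replicate 2 and in Damage BMI1 replicate 3. The other 26 of the 27 Damage regions in Igh were in a single list each. Over the genome, 13 of 190 Damage regions (6.84%) were in 2 or more lists.

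How often a peak was found again in another library of its treatment was set out for peaks inside and outside the loci. For Damage this concerns the same Igh peaks that led to the choice of the loci and is a description. In Damage H2AK119ub replicates 1, 2 and 3, 0 of 5, 1 of 13 and 0 of 2 peaks inside overlapped a peak of another Damage list, against 5 of 26, 8 of 55 and 5 of 23 peaks outside. In Damage BMI1 replicates 2 and 3 these numbers were 0 of 1 and 1 of 7 inside, against 8 of 26 and 9 of 40 outside. The mean share was 4.40 ± 6.45% inside and 21.8 ± 5.92% outside (SD, n = 5 libraries with a peak inside), a difference of -17.4 percentage points. The shares inside rested on 1 to 13 peaks a library, and 5 libraries could not have passed 0.05 in an exact sign-flip permutation test, whose smallest p is 0.0625.

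At Homeostasis, the shares found again inside and outside the loci differed by less than the spread between libraries. The mean share was 81.9 ± 14.2% inside and 83.3 ± 12.2% outside (SD, n = 6), a difference of -1.37 ± 3.64 percentage points (SE, two-sided exact sign-flip permutation p = 0.688). An overlap counts for both libraries that share it, so the 6 differences are not independent. The SE and p-value do not allow for this. The sign changed with 1 library: without Homeostasis BMI1 replicate 2 the difference was 1.86 percentage points. Of 62 Homeostasis regions in the loci, 18 were in 3 or more of the 6 lists, and 34.1% of all Homeostasis regions were.

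**Figure D4:**
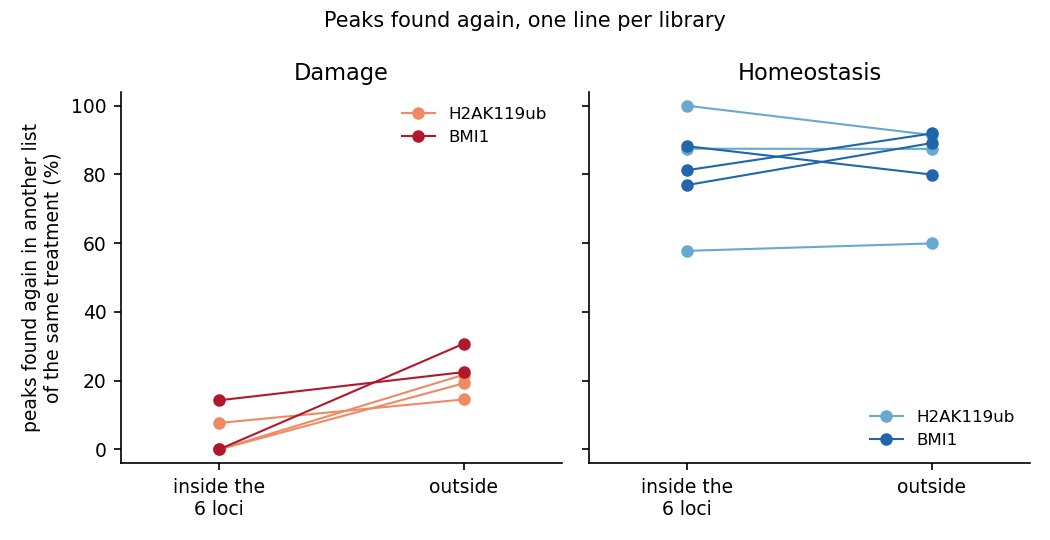
Share of a library's peaks that overlap a peak of another library of the same treatment by 1 bp or more, for peaks inside the 6 loci and outside them, with a line for each library; Damage (left, 5 libraries with a peak inside) and Homeostasis (right, 6 libraries). All 5 Damage lines are lower inside, at 0 to 14.3%, than outside, at 14.5 to 30.8%, while Homeostasis lines run in both directions.

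The Homeostasis regions of Igh that recurred lay among the constant regions, beside a D segment and in the V array. A region 92 bp from the D segment Ighd3-2 (113448009 to 113448122) had a peak in all 6 Homeostasis lists, as had a region 823 bp from the V segment Ighv3-8 (114323489 to 114323684). In 5 lists were a region among the constant regions, 3441 bp from Ighg2c, which encodes the constant region of a gamma heavy chain (113283832 to 113283948), and regions 922 bp from Ighv13-1 (114268828 to 114268959), 1299 bp from Ighv1-9 (114582167 to 114582270) and 3260 bp from the pseudogene Gm5034 (115880194 to 115880314). A region 7158 bp from Ighv4-1 was in 4 lists and one 4179 bp from Ighv1-58 in 3. Each of these 8 regions had peaks of both antibodies, which is fixed for the 7 that were in 4 or more lists, since each antibody had 3. None had a Damage peak, which was the usual case, since 10 of the 5906 Homeostasis regions in 3 or more lists (0.169%) had one.

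Igk had no Damage peak and 44 Homeostasis peaks. Homeostasis H2AK119ub replicates 1, 2 and 3 had 2, 12 and 12 of them, and Homeostasis BMI1 replicates 1, 2 and 3 had 5, 8 and 5. Peaks per Mb in Igk were 0.761 to 1.36 times those of the genome, and the total of 44 equalled the median of windows of its length. All 44 lay in the V array, which makes up 99.3% of the locus, at a median of 7.99 kb from a V segment or pseudogene. One region was in all 6 lists, 8652 bp from Igkv9-129 (chromosome 6, 67831036 to 67831141). Regions 9713 bp from Igkv4-72 and 7013 bp from the pseudogene Gm8853 were in 5 lists, and one 7307 bp from Igkv13-57-2 was in 4. A further pair, beside Igkv9-128 (5212 bp) and the pseudogene Gm8872 (717 bp), was in 3 lists each.

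Tcra held 17 Homeostasis peaks, of which H2AK119ub replicates 1, 2 and 3 had 1, 7 and 2 and BMI1 replicates 1, 2 and 3 had 2, 3 and 2. Its density was 0.401 to 0.784 times that of the genome, below 1 in 6 of 6 lists, and 24.2% of windows of its length held fewer than 17 peaks. The leading regions were 807 bp from the V segment Trav9n-1, with 4 lists (chromosome 14, 53100888 to 53100994), and 2968 bp from Trav7n-5, with 3. Tcrb held 11 Homeostasis peaks, with 0, 6 and 2 in H2AK119ub replicates 1, 2 and 3 and 1 in each BMI1 library. Its leading region, in 4 lists, was 3200 bp from the V pseudogene Trbv10 (chromosome 6, 41095428 to 41095541). Without Homeostasis H2AK119ub replicate 2, the longest list, Tcra had 10 and Tcrb 5 peaks.

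Tcrg held 3 Homeostasis peaks, all at one place 12336 bp from the constant region gene Trgc3, in H2AK119ub replicates 2 and 3 and BMI1 replicate 2 (chromosome 13, 19275733 to 19275837). Igl held 3 as well, 2 in H2AK119ub replicate 2 and 1 in BMI1 replicate 3. A count of 3 is not low for stretches this short: 52.9% of windows of the length of Igl and 62.3% of those of the length of Tcrg held fewer. The medians of these windows were 2 and 1 Homeostasis peaks, and 71.5% and 62.6% of them had a peak in any Homeostasis list. In the order of mean Homeostasis density the loci ran from Igh (1.47 ± 0.333) through Igk (0.966 ± 0.216), Tcrb (0.874 ± 0.602), Tcrg (0.862 ± 0.999) and Igl (0.761 ± 1.23) to Tcra (0.648 ± 0.144, SD, n = 6 each). From Igk to Tcra, neighbours in this order differed by less than the SD of either. Igh lay above Igk by more than either SD over the 6 libraries and in BMI1 libraries (1.72 ± 0.0404 and 0.938 ± 0.102, n = 3), but not in H2AK119ub libraries (1.21 ± 0.284 and 0.994 ± 0.323, n = 3), where replicate 3 had 0.917 in Igh and 1.36 in Igk. The order of the other loci also differed between antibodies: Igl, with 3 peaks, was last in H2AK119ub (0.573) and followed Igh in BMI1 (0.949).

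**Figure D5:**
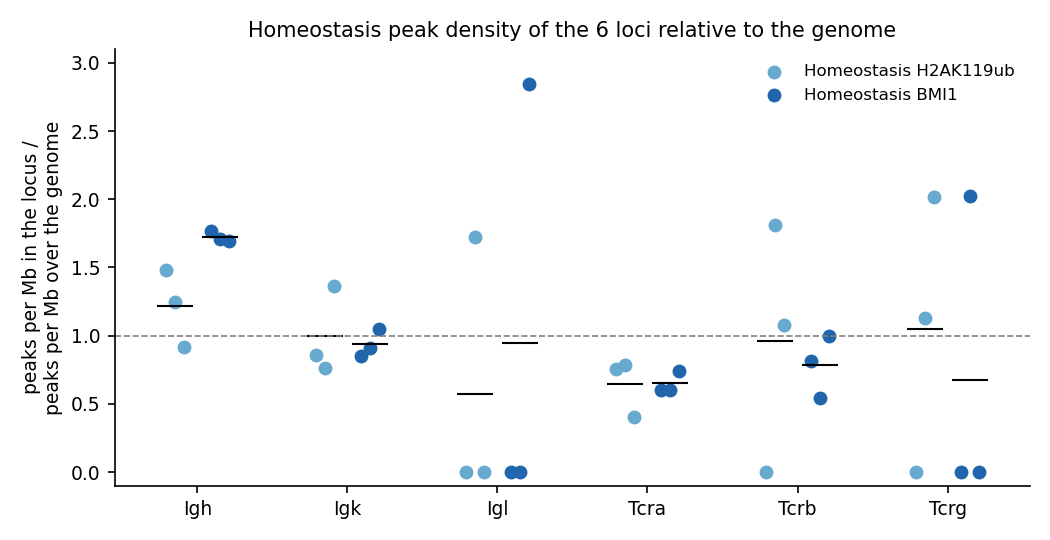
Peaks per Mb in each locus over peaks per Mb of the assembled chromosomes in Homeostasis libraries, with points for libraries, short bars for group means (n = 3) and a dashed line at the density of the genome. In Igh the 3 H2AK119ub libraries lie between 0.917 and 1.48 and the 3 BMI1 libraries between 1.70 and 1.77, and all 6 Tcra points lie below 1.

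Counts per antibody are part of how the loci were described when they were chosen, so the antibodies are set side by side at Homeostasis without a test. Peaks in Igh made up 0.123 ± 0.0286% of H2AK119ub lists and 0.175 ± 0.00397% of BMI1 lists, a difference of -0.0517 percentage points. All 3 H2AK119ub lists lay below all 3 BMI1 lists. For the 6 loci together the shares were 0.318 ± 0.0169% for H2AK119ub and 0.359 ± 0.0294% for BMI1, a difference of -0.0417 percentage points. In the 5 loci other than Igh it was 0.0101 percentage points, in the opposite direction. With 3 libraries against 3 an exact permutation test cannot go below p = 0.1.

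Peaks in the loci had the usual width of the lists. All 28 Damage peaks inside were 101 bp wide, as against 6 wider ones among the 189 outside. At Homeostasis 2 of 134 peaks inside (1.49%) and 1627 of 39481 outside (4.12%) were wider than 101 bp. The mean width was 101.1 bp inside and 101.5 bp outside, with the inside mean lower in 6 of 6 libraries (two-sided exact sign-flip permutation p = 0.0313, the smallest value 6 libraries allow). This rests on few wider peaks: 4 of 6 libraries had none inside, among 6 to 45 peaks each. The smallest width in every list was 101 bp, so in a library without a wider peak inside the inside mean could only be lower. The test therefore cannot decide whether widths differ between the loci and the rest of the genome. Median widths did not differ.

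Few of the peaks lay on an annotated segment or gene. Of the 162 peaks in the loci, 3 overlapped an annotated feature other than the locus, all of them H2AK119ub Homeostasis peaks: on the noncoding RNA gene Gm38573 in Igk, and on the pseudogene Gm4744 and the V pseudogene Trbv11 in Tcrb. None lay on a tRNA, ribosomal RNA or microRNA gene. The RefSeq table (GRCm38.p6) held promoters of 29 genes in the loci, among them Adam6a and Adam6b, which encode ADAM-family sperm proteins and lie inside Igh, and 0 of the 29 promoters overlapped a peak. The shares of all listed peaks on such features, and of all promoters under a peak, are not given here. These counts therefore do not set the loci apart from the rest of the genome.

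Genes outside the loci were ranked by how closely their share of peaks followed that of Igh over the 12 libraries, as the summed absolute difference in percentage points. Apart from Igh, 4 genes had a Damage peak inside in 2 or more lists, and these were Ephb1 (a summed difference of 51.3), Drosha (56.7), n-R5s88 (57.2) and Ptprn2 (64.1), where a gene with no peak in any list would be at 62.7. Ephb1, which encodes an ephrin receptor, had 4 Damage peaks in 4 lists and 7 Homeostasis peaks. Drosha, which encodes the nuclease that begins microRNA maturation, had 5 Damage peaks in 5 lists and 0 Homeostasis peaks. The entry n-R5s88, annotated as a pseudogene, lies inside Ephb1 and shares its 2 Damage peaks with it, and Ptprn2, which encodes a receptor-type phosphatase family protein of secretory vesicles, lies on chromosome 12 beyond the V array of Igh (116485695 to 117278167). Per Mb of gene, Damage peaks numbered 45.3 in Drosha, 9.25 in Ephb1 and 2.52 in Ptprn2, against 10.2 in Igh. Drosha thus had more Damage peaks per Mb than Igh, but its 5 peaks were the same site in 5 lists. The 28 peaks of Igh fell in 27 distinct regions. These rates count a site once for each list, and rates by distinct region are not given here. The pseudogene inside Ephb1 is too short for such a rate.

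Genes that act on antigen receptor loci or mark the cells that use them were counted with a peak in the gene or within 5 kb of it. None of the 65 genes in the 5 lists had a peak in a Damage list, where 0.283% of protein-coding genes did. In 2 or more of 3 Homeostasis lists, 9.63% of protein-coding genes had an H2AK119ub peak and 7.34% a BMI1 peak. Of 21 genes of V(D)J recombination and class switching, 3 had a peak of each antibody: Dntt, the terminal transferase that adds untemplated bases (3 H2AK119ub and 3 BMI1 lists), Dclre1c, the Artemis nuclease that opens hairpin ends (3 and 3), and Prkdc, the DNA-dependent protein kinase (3 and 2). Rag1 and Rag2, which encode the recombinase, are named for this role after their values were seen, and had no peak in any list. Of 10 genes for receptor partners, such as Cd79a and Cd3e, 0 passed for either antibody. Median gene length was 5.96 kb for these partners and 30.3 kb for the V(D)J genes, against 17.2 kb for all protein-coding genes. With 10 short genes, a count of 0 does not set the partners apart, and the part of gene length was not tested.

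Of 18 lymphoid transcription factors, 6 had an H2AK119ub peak and 6 a BMI1 peak in 2 or more of the 3 lists. Ebf1 (2 H2AK119ub and 2 BMI1 lists), Ikzf1 (2 and 3), Ikzf3 (2 and 3), Runx1 (2 and 3) and Runx3 (2 and 3) passed for both. Pax5, the B cell commitment factor, passed for H2AK119ub alone (2 and 1), and Lef1, a factor of Wnt signalling, for BMI1 alone (1 and 2; named after its values were seen). The median length of these factors was 84.9 kb, against 17.2 kb for all protein-coding genes, and the part of gene length in the count was not tested. Among 10 leukocyte surface genes, Ncam1 passed for both antibodies (3 and 3 lists), and Ptprc, which encodes the CD45 used in the sort, had no peak. Pdgfra (3 and 3) and Pecam1 (2 and 2) passed among 6 stromal and sort genes, and Ly6a, which encodes Sca1, had no peak. Peaks do not measure expression, so these counts check neither the sort nor the presence of lymphocytes.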

How the data were processed

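BMI1 and H2AK119ub ChIP-seq peaks of cardiac Sca1+CD45- cells were analysed from the 12 deposited peak lists, made per library. The authors used Bowtie2 and HOMER 4.8 with the build GRCm38, per the submitters' processing notes (settings: not given in the sources used here). Culture at 3% oxygen is described in the labels' protocols, which do not say whether the ChIP cells were cultured. The deposited score is 1 for every peak, so peaks could not be ranked or filtered by it. The 2 Input libraries were not analysed here. Depth is unknown.

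Locus spans and segments came from a RefSeq table of GRCm38.p6. Peaks were counted with Python 3.11.15, numpy 2.4.6, pandas 2.3.3 and scipy 1.17.1. Densities used 2704 Mb between the outermost genes or peaks of chromosomes 1 to 19, X and Y. Overlap meant 1 bp or more. Tests were exact permutations over libraries, checked on simulated data. Peak sequences were not used.

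The members, gene lists and tests were chosen with earlier results of these data known. Named were all Damage peaks, Homeostasis regions in 3 or more lists, genes most like Igh, and list genes with a peak in 2 of 3 Homeostasis lists, up to 6 per list.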

Additional observations from a re-analysis of the deposited data

How the results depend on the processing

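Alternatives were overlap of the span by 1 bp, spans extended by 50 kb, autosomes only, peaks within 1 kb merged, loci other than Igh, another overlap rule, another scale and leaving out each library; for counts, shares and densities the last was added after the data were seen. Of 122 alternative values, 111 kept their direction and their side of 0.05, or moved by less than the spread between libraries. The antibody differences and the Damage comparison of peaks found again had too few libraries to pass 0.05 in any setting. For these, only a change of direction could show. The 8 values that lost their side of 0.05 were all of the width difference, the only result with p below 0.05. The H2AK119ub minus BMI1 difference over the 6 loci was 0.0101 percentage points in loci other than Igh, and -0.0519 to -0.0248 without single libraries. The Homeostasis share of peaks found again, inside minus outside, was -4.10 to 1.86 percentage points without single libraries. The width difference was -0.375 bp, -0.320 in loci other than Igh, 0 for medians, -0.406 to -0.322 without single libraries, where 5 libraries cannot pass 0.05, and -4.22 with peaks within 1 kb merged. Damage peaks of Igh near a Homeostasis peak numbered 1 within 10 kb. The mean share of Damage peaks in Igh was 8.55 to 12.4% without single libraries. The Damage comparison of peaks found again has no value for loci other than Igh, which held no Damage peak. With the replicate block, the antibody differences stayed at -0.0417 and -0.0517 percentage points. Deviations of same-numbered Homeostasis libraries correlated with r = 0.253, 0.549 and -0.122 over genome windows, and not every library correlated best with its own number, so the numbers were not taken as pairs. The 19 to 68 peaks of the Damage lists limit every Damage value.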
